A study of Mus musculus with 6 samples.

Results

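Interferon-gamma and the genes of the cytotoxic granule were followed in CD45+ cells of the ventral midbrain of Line 61 mice, which carry human α-synuclein (α-Syn) under the Thy1 promoter, a neuronal promoter in these mice. The 6 genes were Ifng, Gzma, Gzmb, Prf1, Nkg7 and Klrd1, taken by symbol from the 32285 genes of the gene by cell matrices, and each symbol matched 1 row in all 4 libraries. By the paper, the line is bred from Line 61 females and hybrid B6D2F1 males and kept on a congenic background. The male mice were 12 to 15 weeks old at injection, all carried the transgene, and received PBS, human α-Syn monomer or human α-Syn pre-formed fibrils (PFF) in both striata. The PFF mice then received the JAK1/2 inhibitor AZD1480 or its vehicle (VH, with DMSO) by gavage for 4 weeks from week 2, and cells were taken 6 weeks after PFF. Each of the 4 conditions (PBS, Monomer, PFF + VH and PFF + AZD1480) is 1 droplet library, and 3 to 5 midbrains were pooled for a sample. The samples inside a library can be separated only by the hashtag antibodies of the PFF + VH (4 hashtags) and PFF + AZD1480 (5 hashtags) libraries, so the condition and the library cannot be told apart in any comparison of conditions, PFF + AZD1480 with PFF + VH included.

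Cytotoxic lymphocytes kill by releasing granules onto a target cell. Perforin, from Prf1, forms pores in the target membrane, and the granule proteases granzyme A (Gzma) and granzyme B (Gzmb) enter through them. Nkg7 is a granule membrane protein needed for efficient release. Klrd1 (CD94) is a surface receptor chain that pairs with NKG2 proteins, and Ifng is the secreted cytokine of NK cells, CD8 T cells and Th1 CD4 T cells, which signals through JAK1 and JAK2 and raises antigen presentation in microglia (MG) and macrophages (MM).

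T cells were defined by at least 2 unique molecular identifiers (UMIs, 1 per captured transcript) of Cd3d, Cd3e and Cd3g together and none of Ncr1 and Klrb1c, and NK cells by the reverse. Cells with UMIs of both lists, at least 2 of one, are called cells in both gates, and cells with 1 gate UMI were kept apart. None of the 6 genes chose the cells. Of 77105 cells kept, 504 were T cells, 314 were NK cells and 114 were in both gates, together 1.21%. The PBS, Monomer, PFF + VH and PFF + AZD1480 libraries held 14617, 15031, 34436 and 13021 cells at a median of 7028, 6688, 2306 and 6616 UMIs, so the PFF + VH library was the shallowest by far. Between 45 and 151 cell barcodes were shared by a pair of libraries.

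The gates were read against markers that had not defined them. All 7 NK check genes (Klre1, Klra8, Klra4, Eomes, Tyrobp, Klrk1 and Il2rb) and all 7 T check genes (Trac, Trbc1, Trbc2, Lck, Cd2, Skap1 and Il7r) had UMIs in their own gate. This did not set the gates fully apart, since all 7 T check genes also had UMIs in NK cells, at a summed 2190, 2664, 1304 and 1771 CPM (the UMIs of a gene scaled to the same total in every class) against 3997, 4171, 2327 and 3212 CPM in T cells of PBS, Monomer, PFF + VH and PFF + AZD1480. The NK check genes summed to 6573, 5044, 3891 and 3844 CPM in NK cells, 841 to 2019 CPM in T cells and 1759 to 2472 CPM in MG. Nearly all of the MG sum was Tyrobp. Each of the other NK check genes was at 1.53 CPM or less in cells without a gate UMI in every library. In T cells each of them was at 201 CPM or less, and in NK cells at 4.88 to 1028 CPM. The NK gate was not uniform, however. Eomes, the transcription factor of conventional NK cells, was found in 54.7%, 29.1%, 9.70% and 3.85% of NK cells in the PBS, Monomer, PFF + VH and PFF + AZD1480 libraries, a share that differed between libraries. The 5 genes listed for ILC1 or tissue-resident cells (Il7r, Cxcr6, Itga1, Tmem176b and Cd200r1) summed to 638, 1268, 1012 and 1244 CPM in NK cells. They also summed to 1133, 1529, 911 and 1477 CPM in T cells and 953, 1074, 774 and 884 CPM in MM. Il7r is a T check gene too, so the summed level of the list does not mark a cell type here. NK means Ncr1 or Klrb1c positive and CD3 negative in what follows. MG genes took a median of 0.110%, 0.154%, 1.42% and 0.550% of the counts of T cells in the same order, and exceeded 2% of counts in 53 of 164 T cells of PFF + VH. In NK cells they did so in 3 of 75, 3 of 79, 37 of 134 and 6 of 26 cells, and summed to 4165, 3036, 14474 and 11116 CPM, so both PFF libraries were above PBS and Monomer. The part of these counts in the NK levels was not tested. Neutrophil genes summed to 3353, 3884, 8360 and 21339 CPM in T cells, but the 18 T cells with 3 or more such UMIs held only 7 Nkg7 UMIs, 2 Klrd1 UMIs and none of the other 4 genes.

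The genes lie apart in the genome, apart from Ifng and Prf1, which share a chromosome. In GRCm38 (mm10), the build of the files, Ifng is at chr10:118441046-118445892 (+), Prf1 at chr10:61297833-61304680 (+), Gzma at chr13:113093825-113100981 (-), Gzmb at chr14:56258838-56262260 (-), Nkg7 at chr7:43437073-43438249 (+) and Klrd1 at chr6:129591782-129598775 (+), all protein-coding. Because AZD1480 acts on JAK/STAT signalling and Gzma, Gzmb, Prf1 and Ifng encode the secreted effectors among the members, the 250 bases before the RefSeq transcription start of these 4 genes are shown, 5′ to 3′ on the strand of the gene. Capitals mark matches, on either strand, to the T-box letters TCACAC, the Runx letters ACCACA, the STAT letters TTCNNNGAA or the AP-1 letters TGANTCA. RefSeq gave 5 of the 6 starts in GRCm38.p6, and Klrd1 was not matched.
Gzma, chr13:113100982-113101231 (-): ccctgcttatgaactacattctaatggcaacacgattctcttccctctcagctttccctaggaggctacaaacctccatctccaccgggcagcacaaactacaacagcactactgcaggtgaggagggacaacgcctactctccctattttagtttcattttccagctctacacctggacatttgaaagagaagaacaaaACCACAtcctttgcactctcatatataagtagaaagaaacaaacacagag
Gzmb, chr14:56262335-56262584 (-): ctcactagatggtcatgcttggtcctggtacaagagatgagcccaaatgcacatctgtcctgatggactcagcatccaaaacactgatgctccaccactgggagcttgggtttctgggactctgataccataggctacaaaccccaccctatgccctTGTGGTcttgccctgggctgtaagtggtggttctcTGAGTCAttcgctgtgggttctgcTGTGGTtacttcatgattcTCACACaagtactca
Prf1, chr10:61297586-61297835 (+): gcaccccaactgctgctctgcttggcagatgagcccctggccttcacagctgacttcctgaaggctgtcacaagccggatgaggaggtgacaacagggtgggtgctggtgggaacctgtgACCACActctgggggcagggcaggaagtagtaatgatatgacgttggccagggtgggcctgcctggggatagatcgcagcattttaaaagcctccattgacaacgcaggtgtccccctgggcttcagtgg
Ifng, chr10:118440796-118441045 (+): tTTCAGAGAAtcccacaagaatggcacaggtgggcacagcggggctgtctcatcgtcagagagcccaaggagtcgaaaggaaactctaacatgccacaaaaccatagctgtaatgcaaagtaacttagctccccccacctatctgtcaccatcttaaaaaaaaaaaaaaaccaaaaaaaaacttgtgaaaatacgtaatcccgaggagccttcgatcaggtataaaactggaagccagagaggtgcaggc
Gzma and Prf1 held 1 Runx match each. Gzmb held 2 Runx matches, 1 AP-1 match and 1 T-box match, and Ifng held 1 STAT match at the far end of its window. Nkg7, whose window is not printed, held 1 T-box, 1 Runx and 1 STAT match. Such short letters are common, since 14.0% of 32851 mouse windows of this length held the Runx letters, 12.3% the T-box letters, 7.02% the STAT letters and 6.75% the AP-1 letters. The matches are a description of the letters only.

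First, the cells that held each transcript were counted over the 4 libraries. Gzma was the most restricted to the NK gate, with 78.4% of its 4310 UMIs in NK cells, 11.2% in cells in both gates and 0.603% in T cells. Gzmb (889 UMIs) had 63.6% of its UMIs in NK cells, from 36.7% in PFF + AZD1480 to 82.6% in Monomer, and Prf1 (837 UMIs) had 58.9%, from 19.0% to 67.3% in the same libraries. Nkg7 (4743 UMIs) was spread over NK cells (45.4%), T cells (25%) and cells in both gates (17.6%). In PFF + AZD1480 more UMIs of Prf1 and Nkg7 lay in T cells (27.6% and 44.5%) than in NK cells (19.0% and 24.0%). Ifng, with 433 UMIs the least captured of the 6, had 31.9% of its UMIs in NK cells and 32.1% in T cells, but the libraries differed, at 26.7% and 27.6% in PBS, 50% and 24.0% in Monomer, 22.3% and 33.0% in PFF + VH and 11.7% and 60% in PFF + AZD1480. Klrd1 was different from the others, with 62.6% of its 6738 UMIs in cells that had no T or NK gate UMI at all, against 4.50% for Gzma and 15.2% for Ifng.

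**Figure D1:**
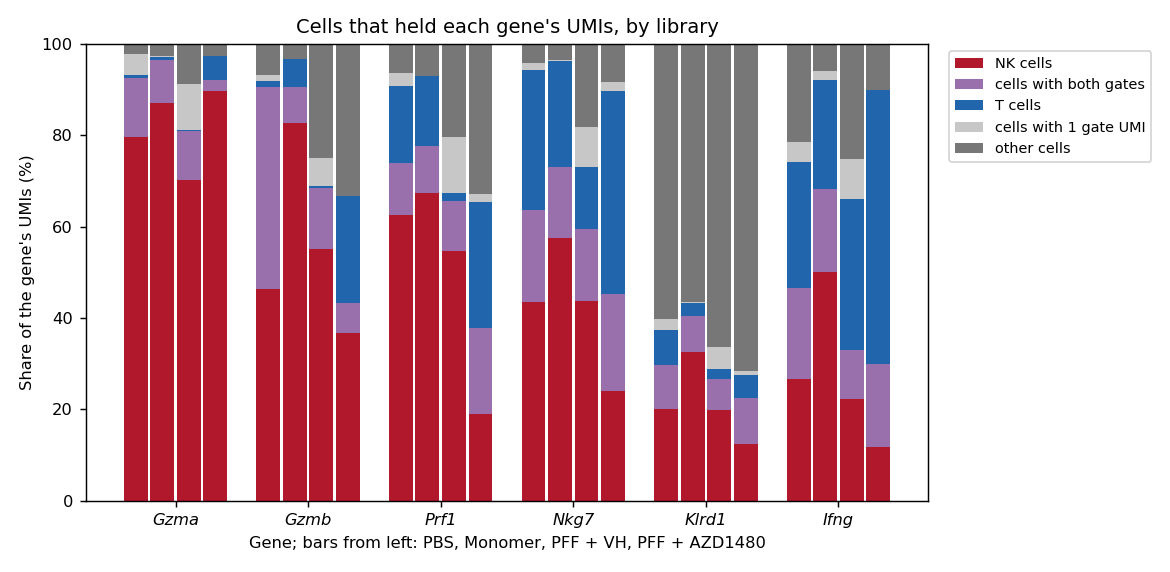
Stacked bars give the share (%) of each gene's UMIs held by NK cells, cells in both gates, T cells, cells with 1 gate UMI and all other cells, with 1 bar per library (PBS, Monomer, PFF + VH, PFF + AZD1480 from the left). NK cells held most Gzma UMIs in every library, and Klrd1 UMIs lay mostly in other cells.

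Levels were then compared between cell classes, summing counts per class and library and testing with edgeR over 8647 genes with the library as a block. In NK cells against other cells, 26.2% of the genes tested were higher and 26.9% lower, and all 6 members were among those higher. The smallest of the 6 differences was that of Klrd1 (log2 fold change 6.15 ± 0.26 (SE), adjusted p = 4.41e-09) and the largest that of Gzma (11.92 ± 0.58, adjusted p = 1.25e-08). Between them were Nkg7 (10.18 ± 0.57), Gzmb (9.76 ± 0.64), Prf1 (9.73 ± 0.53) and Ifng (8.62 ± 0.51). In T cells against other cells, 26.9% of genes were higher and 26.7% lower, and the 6 members were again higher, at 8.74 ± 0.55 for Nkg7, 8.09 ± 0.49 for Ifng, 6.97 ± 0.61 for Prf1, 5.21 ± 1.09 for Gzmb, 4.32 ± 0.79 for Gzma and 3.04 ± 0.24 for Klrd1. When the 4 PFF + VH hashtags served as samples in place of the libraries, Gzma, Prf1 and Gzmb were no longer called in T cells, and Gzmb took the opposite sign (-5.58, adjusted p = 0.667). Without any 1 library these 6 calls held, at 3.84 (without Monomer) to 6.81 (without PFF + VH) for Gzmb and 3.88 (without PBS) to 5.42 (without PFF + VH) for Gzma.

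The order of the levels can be seen in the per-library values, which carry exact Poisson 95% intervals for CPM and exact Clopper-Pearson 95% intervals for shares of cells, both covering counting error only. In NK cells, Gzma was at 3208 CPM (3042 to 3381) in PBS, 1891 (1769 to 2020) in Monomer, 1776 (1669 to 1888) in PFF + VH and 337 (262 to 426) in PFF + AZD1480. In T cells the same libraries had 14.3, 9.01, 3.18 and 5.11 CPM of Gzma, and in other cells 0.386, 0.281, 1.22 and 0.0241 CPM. Gzma was thus far higher in NK cells than in T cells in all 4 libraries, the smallest gap being in PFF + AZD1480.

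Gzma was also unevenly held within the NK gate. A UMI of it was found in 50 of 75 NK cells in PBS (66.7%), 27 of 79 in Monomer (34.2%), 41 of 134 in PFF + VH (30.6%) and 1 of 26 in PFF + AZD1480 (3.85%, interval 0.0973 to 19.6). The single positive NK cell of PFF + AZD1480 held all 69 Gzma UMIs of the NK cells of that library. Positive cells were rich in every library, with a mean of 27.8 UMIs per positive NK cell in PBS, 32.9 in Monomer and 25.1 in PFF + VH, and a maximum of 115, 104 and 127. Between PBS, Monomer and PFF + VH, the share of NK cells with Gzma differed more than the count per positive cell.

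Gzma followed the conventional NK markers within the gate. A split chosen after the values were seen set 118 NK cells with a UMI of Eomes, Klra4 or Klra8 (Klra4 and Klra8 encode Ly49 receptors) apart from 196 without. Gzma was found in 44 of 51 cells with such a UMI and 6 of 24 without in PBS, in 18 of 30 and 9 of 49 in Monomer, in 23 of 32 and 18 of 102 in PFF + VH, and in 1 of 5 and 0 of 21 in PFF + AZD1480, where the count of 0 allows a share of up to 14.3% (3 cells of 21). Over all libraries this is 72.9% against 16.8% for Gzma. Prf1 was found in 82.2% and 39.3% of the same cells, Gzmb in 35.6% and 32.1%, Ifng in 29.7% and 19.9%, Nkg7 in 96.6% and 81.1%, and Klrd1 in 93.2% and 78.1%. The gap was wide for Gzma and Prf1 and narrow for Gzmb. A UMI of the 5 genes listed for ILC1 was found in 35.3%, 83.3%, 59.4% and 100% of the first set in PBS, Monomer, PFF + VH and PFF + AZD1480. In the second set it was found in 95.8%, 95.9%, 87.3% and 95.2%. The share of NK cells in the first set was largest in PBS, and its part in the library values of Gzma was not tested. The part of the hybrid breeding of the mice in these Ly49 counts was not tested either.

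Gzmb, the granzyme that cleaves caspases in the target, had another order across libraries. Its level in NK cells was 157 CPM (122 to 199) in PBS, 598 (530 to 672) in Monomer, 354 (307 to 406) in PFF + VH and 53.7 (26.8 to 96.0) in PFF + AZD1480. Monomer was highest and none of these 4 intervals overlapped. The shares of NK cells with a Gzmb UMI were closer to each other, at 26.7%, 44.3%, 34.3% and 15.4%. T cells had 2, 21, 1 and 7 Gzmb UMIs in all, and 17 of the 21 in Monomer came from 1 cell.

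Prf1, the perforin gene, was highest in NK cells of PBS and Monomer. It was at 403 CPM (346 to 468) in PBS, 389 (335 to 450) in Monomer, 214 (178 to 255) in PFF + VH and 53.7 (26.8 to 96.0) in PFF + AZD1480. PBS and Monomer did not differ beyond counting error, and each of the next libraries was lower. In T cells Prf1 was at 47.8, 63.1, 6.37 and 20.5 CPM, and in 27.2%, 17.5%, 2.44% and 10.4% of cells, so that it was lowest in the shallow PFF + VH library. In Monomer 17 of the 42 Prf1 UMIs of T cells lay in 1 cell.

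Nkg7 and Klrd1 were found in most NK cells of every library. Nkg7 had 1376, 1694, 1081 and 654 CPM in NK cells and was found in 92.0%, 91.1%, 83.6% and 76.9% of them. T cells had 429, 483, 309 and 318 CPM of Nkg7, in 49.7%, 40.2%, 30.5% and 34.4% of cells, against 0.299% to 0.677% of other cells. Klrd1 had 890, 1272, 691 and 585 CPM in NK cells and 148, 79.6, 71.7 and 61.4 CPM in T cells, and both genes were highest in NK cells in Monomer.

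The order of NK and T cells for Ifng differed between libraries. In NK cells it was at 71.4 CPM (48.5 to 101) in PBS, 164 (129 to 205) in Monomer, 39.7 (25.2 to 59.6) in PFF + VH and 34.1 (13.7 to 70.3) in PFF + AZD1480. In T cells it was at 32.6 (22.3 to 46.0), 55.6 (39.1 to 76.6), 54.1 (37.5 to 75.7) and 46.0 (32.2 to 63.7). The NK level was above the T level in PBS and Monomer, where the intervals did not overlap, and below it in both PFF libraries, where they did, whereas the other 5 genes were higher in NK cells in every library, 22 of 24 pairs of gene and library in all. T cells with an Ifng UMI were 13.6%, 17.5%, 13.4% and 14.6% of T cells at median depths of 6018, 6600, 2897 and 7536 UMIs, against 0.0393% to 0.155% of other cells at 2302 to 7050 UMIs. The 4 T cell intervals overlapped. In Monomer, 22 of the 77 Ifng UMIs of NK cells lay in 1 cell.

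**Figure D2:**
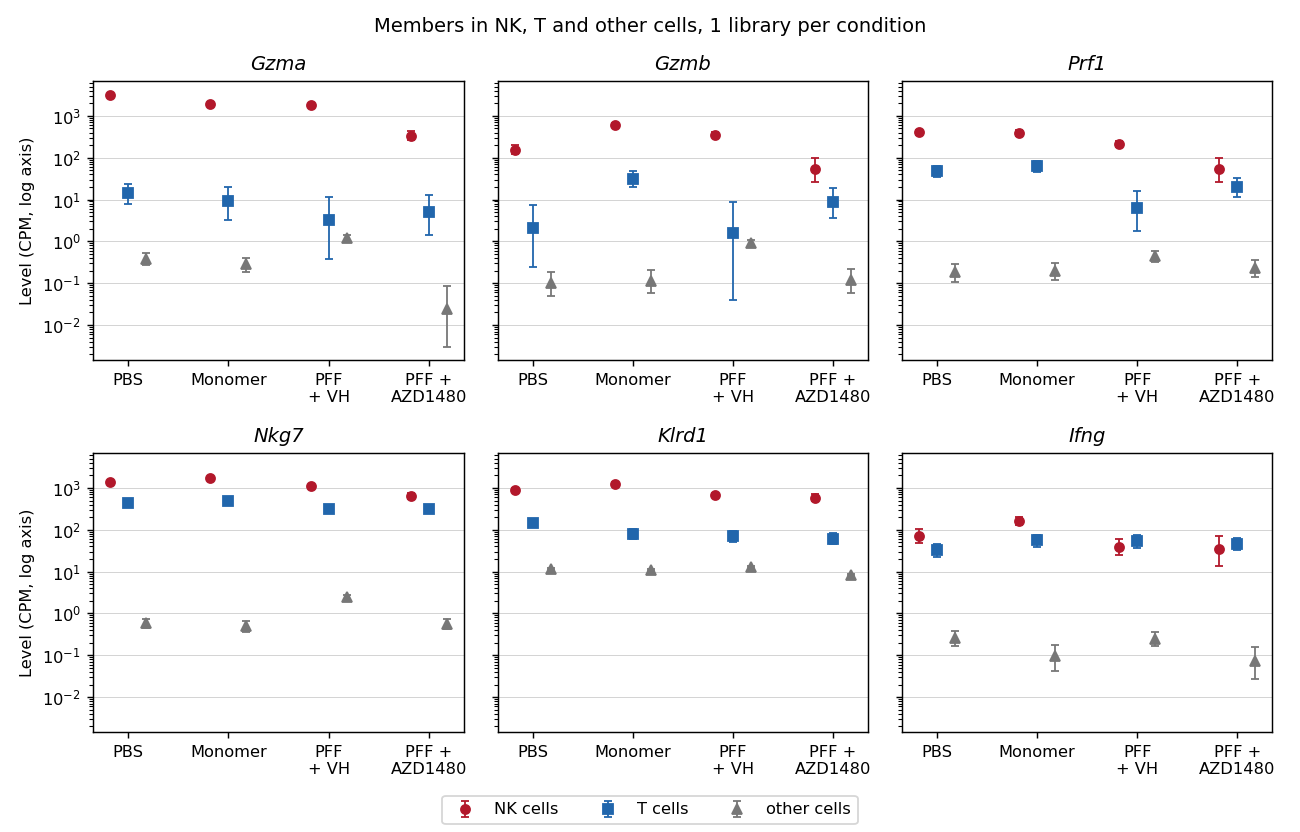
Points give the level in CPM (log axis) of each gene in NK cells, T cells and other cells of the 4 libraries, and bars give exact Poisson 95% intervals. NK cells were highest for 5 genes in all libraries and for Ifng in PBS and Monomer, while the Ifng intervals of NK and T cells overlapped in both PFF libraries.

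The test of NK cells against T cells called 3.18% of 8647 genes higher and 3.06% lower, and 4 of the 6 members were among the higher genes. These were Gzma (log2 fold change 7.60 ± 0.57, adjusted p = 2.4e-05), Gzmb (4.55 ± 0.67, adjusted p = 0.00144), Klrd1 (3.11 ± 0.24, adjusted p = 2.4e-05) and Prf1 (2.76 ± 0.46, adjusted p = 0.00314). Nkg7 did not pass (1.44 ± 0.40, adjusted p = 0.0576), although 7 of 15 alternative settings called it higher. Ifng showed no detectable difference (0.53 ± 0.43, adjusted p = 0.564).

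Cells without a T or NK gate UMI held few transcripts of 5 of the genes. In MG, Gzma was found in 162 of 70165 cells, of which 0 of 11681 were in PFF + AZD1480 (3 counts would be 0.0257%, and the exact binomial upper limit is 0.0316%) and 0.357% in PFF + VH, the library with the most cells. No other cell held 5 or more UMIs of Gzma, Prf1, Nkg7 or Ifng, and 2 cells of PFF + VH did so for Gzmb. The ratio of Gzma to Nkg7 UMIs was 0.646, 0.511, 0.519 and 0 in MG and 2.33, 1.12, 1.64 and 0.515 in NK cells of the same libraries, lowest in PFF + AZD1480 in both.

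Klrd1 was found in more MG than the other members. It had UMIs in 887 of 13293 MG in PBS (6.67%), 788 of 13849 in Monomer (5.69%), 1101 of 31342 in PFF + VH (3.51%) and 497 of 11681 in PFF + AZD1480 (4.25%). Its ratio to Nkg7 was 23.0, 21.0, 5.42 and 14.5 in MG against 0.647, 0.751, 0.639 and 0.896 in NK cells. Departures from the NK ratio were not limited to Klrd1 and Gzma, as the ratio of Ifng to Nkg7 in PBS was 0.375 in MG and 0.0519 in NK cells and that of Prf1 in PFF + AZD1480 0.432 and 0.0821, on 18 and 19 MG UMIs against 640 to 1252 for Klrd1. The source of these UMIs was not tested. The level in MG was 11.6, 10.6, 12.7 and 8.24 CPM, within a narrow range over the 4 libraries.

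T cells were next divided by co-receptor transcripts, with 116 CD8 cells (a UMI of Cd8a or Cd8b1 and none of Cd4) and 97 CD4 cells (the reverse). Nkg7 was at 995, 1217, 851 and 1223 CPM in the CD8 cells and at 75.7, 111, 38.7 and 82.7 CPM in the CD4 cells of PBS, Monomer, PFF + VH and PFF + AZD1480. It was found in 88.8% of CD8 cells and 18.6% of CD4 cells over the libraries, with no overlap between the classes. The edgeR test with the library as a block, in which 0.821% of 3288 genes were higher and 1.13% lower in CD8 cells, called Nkg7 higher (log2 fold change 3.82 ± 0.22, adjusted p = 2.04e-06), the only member with enough counts to be tested. Klrd1 was at 242, 119, 49.2 and 211 CPM in CD8 cells and 13.1 to 19.3 CPM in CD4 cells, and passed in each of the 5 alternative settings that tested it. Prf1 was found in 37.1% of CD8 and 7.22% of CD4 cells and passed in 1 of 4 settings. Gzma and Gzmb were found in 6.90% and 3.45% of CD8 cells, near the limit of these cell numbers.

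Ifng was shared by both T cell classes. It was at 35.5, 56.8, 120 and 109 CPM in CD8 cells and at 45.4, 42.3, 19.3 and 52.2 CPM in CD4 cells, with UMIs in 25% and 15.5% of cells. CD8 was the higher of the classes in 3 of 4 libraries, and none of the 4 settings that tested Ifng called it. In PFF + AZD1480, 10 of the 16 Ifng UMIs of CD8 cells lay in 1 cell. PFF + VH had only 10 CD4 cells, 1 of them with Ifng. Depth did not separate the classes, at medians of 5398 to 7709 UMIs in CD8 and 5448 to 7010 in CD4 cells.

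**Figure D3:**
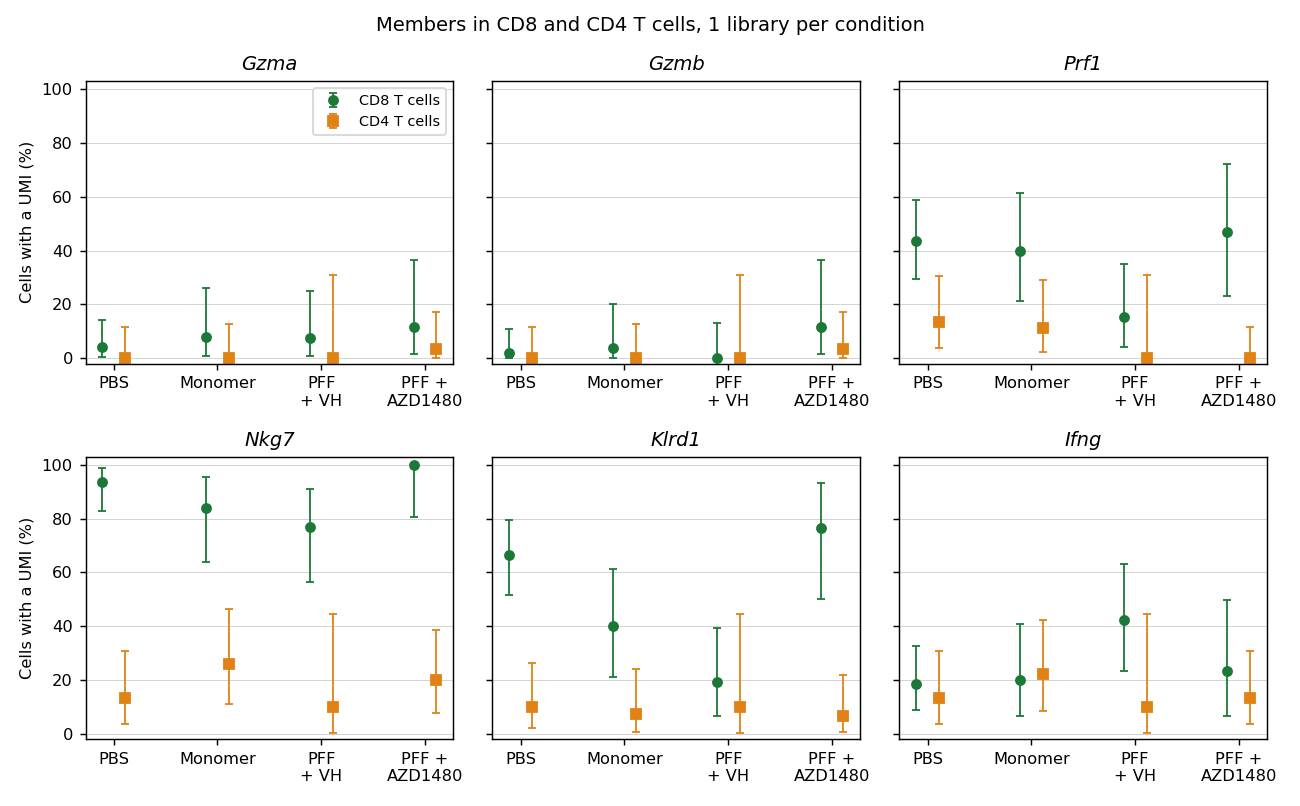
Points give the share (%) of CD8 and CD4 T cells with a UMI of each gene in the 4 libraries, and bars give exact Clopper-Pearson 95% intervals. Nkg7 was found in 76.9% to 100% of CD8 cells and 10.0% to 25.9% of CD4 cells, while the intervals for Ifng overlapped in every library.

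The members were then counted together in single cells. Of 314 NK cells, 146 had UMIs of 4 or more members, 14 had all 6 and 21 had none. In PBS 51 of 75 NK cells had 4 or more, in Monomer 45 of 79, in PFF + VH 45 of 134 and in PFF + AZD1480 5 of 26. All 3 granule effectors (Gzma, Gzmb and Prf1) were found in 45 NK cells and none of them in 90. Of 119 NK cells with Gzma, 96 had Prf1 and 56 had Gzmb, whereas 49 of the 105 NK cells with Gzmb lacked Gzma. The 56 of 105 NK cells with Gzmb that had Gzma were nevertheless a larger share than the 119 of all 314 NK cells. The same order was seen within each library.

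T cells with Ifng were counted in the same way. Of 504 T cells, 259 had no member, 421 had no granule effector and none had all 3. Among the 73 T cells with Ifng, 51 had Nkg7, 23 had Prf1, 2 had Gzma, 2 had Gzmb and 48 had no granule effector. In PBS it was 7 of 20 Ifng cells that had no granule effector, 12 having Prf1, a smaller share than among all T cells of that library, and in PFF + VH it was 18 of 22 against 157 of all 164. Among the 74 NK cells with Ifng, 69 had Nkg7, 46 had Prf1, 29 had Gzmb, 29 had Gzma and 17 had no granule effector. These counts depend on depth, and a transcript not captured is not shown to be missing from the cell.

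Since depth differed, shares were also taken after thinning every cell to 1000 UMIs. The share of NK cells with Gzma was then 58.7%, 30.4%, 25.2% and 3.85% in PBS, Monomer, PFF + VH and PFF + AZD1480, in the same order as before. Nkg7 was at 65.3%, 67.1%, 52.7% and 50.0%, and Prf1 at 29.3%, 34.2%, 19.8% and 3.85%. Ifng came to 8%, 5.06%, 5.34% and 7.69%, with overlapping intervals. After thinning to 2000 UMIs it came to 12.7%, 19.2%, 9.43% and 15.4%, highest in Monomer as for the unthinned share (38%) and the CPM, and these intervals overlapped too. At 1000 UMIs 3 shallower NK cells of PFF + VH were left out and none elsewhere, and at 2000 UMIs 4, 6, 28 and 0 were left out.

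PFF + AZD1480 and PFF + VH could be compared over several samples each, since cells can be assigned to a hashtag, each taken as 1 sample. The hashtags of a treatment still share 1 library, at a median of 2306 UMIs per cell for PFF + VH and 6616 for PFF + AZD1480, so a difference of treatment and one of library cannot be told apart. A single hashtag was called on 53.3% of PFF + VH cells and on 80.1% of PFF + AZD1480 cells. The T cells, NK cells and cells in both gates of a hashtag were summed, and hashtags with fewer than 10 such cells were left out, which kept 4 PFF + VH hashtags (39, 43, 60 and 67 cells) and hashtags 1, 2 and 4 of PFF + AZD1480 (18, 18 and 25 cells). Gzma was at 517, 738, 2300 and 921 CPM in the PFF + VH hashtags and at 8.02, 0 and 5.94 CPM in the AZD1480 hashtags, 895 UMIs against 2, where the count of 0 allows up to 23.1 CPM. Gzmb was at 327, 317, 362 and 105 CPM against 16.0, 0 and 0 CPM, 200 UMIs against 2. The groups did not overlap for either granzyme.

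By edgeR, 0.234% of 3426 genes were higher and 0.467% lower with AZD1480, and 3 of the 6 members were among the 16 lower genes. Gzma fell (log2 fold change -7.70 ± 0.79, adjusted p = 0.00047), as did Gzmb (-5.65 ± 0.77, adjusted p = 0.00328) and, at the edge of the threshold, Nkg7 (-1.26 ± 0.27, adjusted p = 0.0484). Without any 1 hashtag both granzyme calls held, at -8.14 to -7.06 for Gzma and -8.61 (without AZD1480 hashtag 1, which leaves Gzmb at 0 in the other two) to -4.99 (without AZD1480 hashtag 4) for Gzmb. With 2 UMIs on one side the fitted folds of the granzymes depend on the prior count, and the pooled ratio of PFF + VH over PFF + AZD1480 was 248 (68.4 to 2049) for Gzma and 55.4 (15.1 to 460) for Gzmb. The Gzma and Gzmb calls were lost when the 2 small AZD1480 hashtags were added (Gzma -2.28, adjusted p = 0.572; Gzmb -3.84, adjusted p = 0.0799), a setting chosen after the values were seen, and that of Gzma also with a gate of 1 UMI (-3.31, adjusted p = 0.108), under which these hashtags had 10 or more cells and entered the test too. Hashtag 3, with 5 lymphocytes, held 1 cell with 69 Gzma and 7 Gzmb UMIs and so stood at 1505.5 CPM of Gzma and 153 CPM of Gzmb. Hashtag 5, with 7 lymphocytes, had no UMI of either. With all hashtags the pooled ratio was 8.61 (6.76 to 11.1) for Gzma and 15.2 (7.84 to 33.7) for Gzmb. The intervals of these pooled ratios cover counting error only, not the spread between hashtags or cells. Of the 71 AZD1480 Gzma UMIs in the ratio of 8.61, 69 came from 1 cell.

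Lymphocytes carrying more than 1 hashtag, which did not enter the test, gave a separate reading. Gzma was at 428 CPM in 118 such cells of PFF + VH and 6.56 CPM in 70 such cells of PFF + AZD1480. Gzmb was at 84.1 and 18 CPM. Both granzymes were lower with AZD1480 in these cells, without a test. NK cells were 37 of the 118 and 11 of the 70 cells, and the part of this difference in the values was not tested.

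Prf1 and Klrd1 were lower in every tested AZD1480 hashtag than in any PFF + VH hashtag but did not pass. In the alternative settings Prf1 passed in 9 of 21 and Klrd1 in 3 of 21. Prf1 was at 137, 202, 233 and 76.7 CPM in PFF + VH and 8.02, 15.4 and 53.5 CPM with AZD1480 (-2.51 ± 0.54, adjusted p = 0.0523), and stayed below the PFF + VH hashtags when all 5 AZD1480 hashtags were shown. Klrd1 was at 707, 388, 491 and 452 CPM against 56.1, 154 and 309 CPM (-1.50 ± 0.38, adjusted p = 0.109). Nkg7 was at 1064, 716, 1006 and 682 CPM against 273, 270 and 529 CPM, and its call held in 7 of 21 alternative settings. It was lost, among others, without any 1 of PFF + VH hashtags 1 to 4 or AZD1480 hashtags 1 and 2 (adjusted p = 0.0636 to 0.194). Over all 5 AZD1480 hashtags, Klrd1 reached 567 CPM and Nkg7 753 CPM. Both genes then overlapped the PFF + VH hashtags, which began at 388 and 682 CPM.

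Ifng did not move with the granzymes. It was at 38, 43.7, 59.5 and 24.2 CPM in the PFF + VH hashtags and 64.1, 54.0 and 89.1 CPM in the AZD1480 hashtags, and the groups overlapped. The difference by edgeR was 0.77 ± 0.43 (adjusted p = 0.622). The pooled ratio of PFF + AZD1480 over PFF + VH was 1.75 (1.02 to 2.99) in the tested hashtags and 1.61 (0.958 to 2.70) with all hashtags. These intervals cover counting error only. The ratio of the tested hashtags rests on 31 UMIs in PFF + VH and 30 in PFF + AZD1480.

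**Figure D4:**
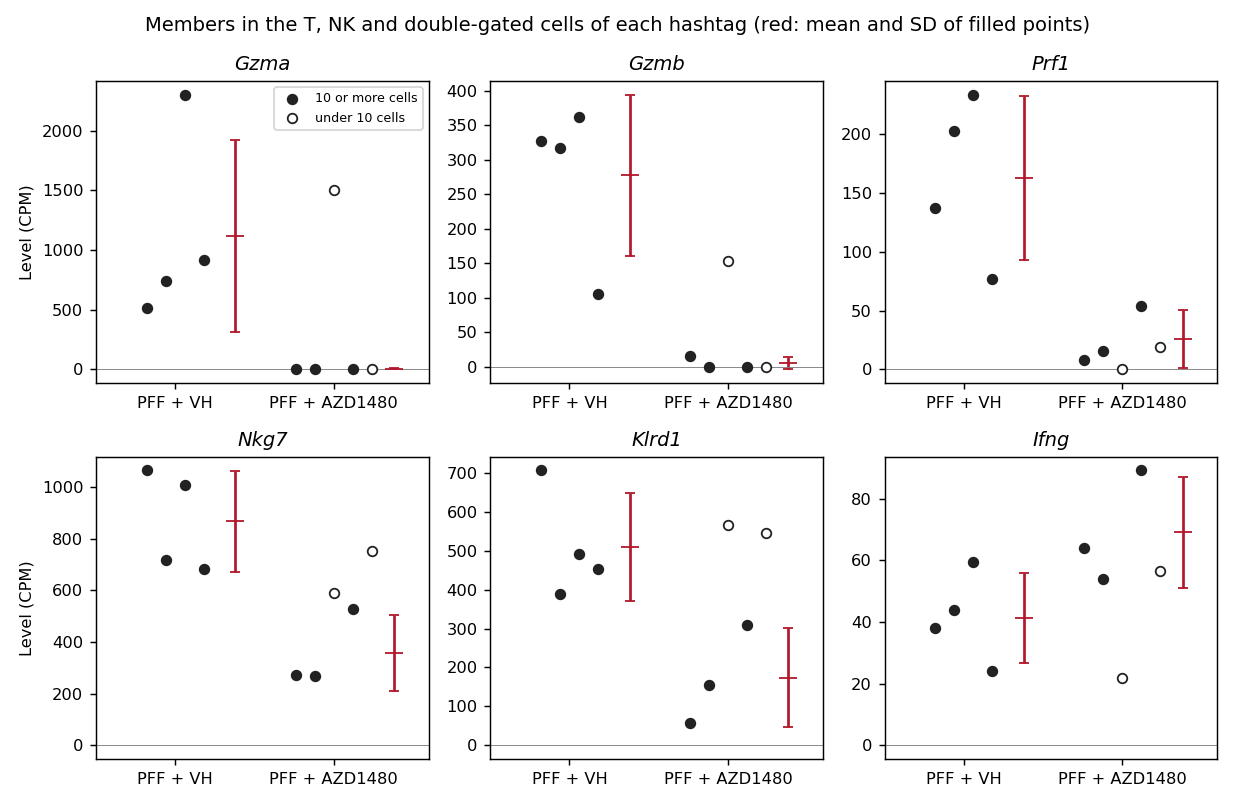
Points give the level (CPM) of each gene in the summed T, NK and double-gated cells of each hashtag, filled for hashtags with 10 or more cells and open for smaller ones, and red marks give the mean and SD of the filled points. For Gzma and Gzmb the filled points of PFF + AZD1480 lie at or near 0, and 1 open point lies high, at 1505.5 and 153 CPM.

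The sum of lymphocytes mixes how many NK cells a hashtag has with the level in each, and these cannot be told apart in it. NK cells were 27 of 39, 15 of 43, 26 of 60 and 24 of 67 summed cells in the PFF + VH hashtags and 3 of 18, 3 of 18 and 5 of 25 in the tested AZD1480 hashtags. In NK cells alone, Gzma was at 706, 1525, 4967 and 2276 CPM in PFF + VH and at 0, 0, 3686, 0 and 0 CPM in the 5 AZD1480 hashtags, and Gzmb at 447, 472, 849 and 200 CPM against 83.0, 0, 374, 0 and 0 CPM. A count of 0 allows 85.5 to 207 CPM in these hashtags. With 2 to 5 NK cells per AZD1480 hashtag no test was made with this gate. With a gate of 1 UMI, edgeR called 34 genes higher and 50 lower of 3199, over 4 PFF + VH hashtags and AZD1480 hashtags 1, 2 and 4, as hashtags 3 and 5 had 5 and 6 such cells. The lower genes included Gzma (adjusted p = 0.000147), with 139, 140, 437 and 243 UMIs in the PFF + VH hashtags and 0 in each of the 3 AZD1480 hashtags, while the omitted hashtag 3 had 69 UMIs. They also included Gzmb (-4.79 ± 0.73, adjusted p = 0.00252), Prf1 (-3.05 ± 0.61, adjusted p = 0.0137), Nkg7 (-1.98 ± 0.24, adjusted p = 0.000357) and Klrd1 (-2.21 ± 0.32, adjusted p = 0.00159). Of the 10, 10 and 14 NK cells of these AZD1480 hashtags, only 3, 3 and 5 also passed the gate of 2 UMIs. In PFF + VH it was 27, 15, 26 and 24 of 63, 50, 60 and 52. Over whole libraries, Nkg7 was found in 11.6% (VH) and 1.81% (AZD1480) of cells with 1 gate UMI of either list. The part of such cells in these calls was not tested. With all hashtags and the gate of 2 UMIs, Gzma (-1.81, adjusted p = 0.861), Gzmb, Nkg7 and Klrd1 were tested by edgeR and did not pass (adjusted p = 0.838 to 0.912). In T cells alone, 148 of 1847 genes had an unadjusted p under 0.05, edgeR called 0% of them in either direction, as did DESeq2, and Nkg7 was the only member with enough counts (-0.57 ± 0.54, adjusted p = 0.804). Ifng in T cells was at 0 to 51.5 CPM in the PFF + VH hashtags (11 UMIs) and at 31.6 to 113 CPM in the 3 tested AZD1480 hashtags (21 UMIs), which overlapped.

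The share of NK cells among the cells of a hashtag was lower with AZD1480. NK cells made up 0.633%, 0.375%, 0.605% and 0.415% of cells in the PFF + VH hashtags, a mean of 0.507% ± 0.131 (SD, n = 4), and 0.127%, 0.122%, 0.143%, 0.173% and 0.152% in the AZD1480 hashtags, 0.143% ± 0.0203 (SD, n = 5). All 5 AZD1480 values were below all 4 PFF + VH values, and the difference of -0.364 percentage points had the smallest p this design allows (two-sided exact permutation test over 126 splits, p = 0.0159, adjusted over 3 shares to 0.0476). T cells were 0.534% ± 0.198 against 0.380% ± 0.247, and the groups overlapped (exact permutation p = 0.317, adjusted p = 0.476). Cells in both gates were 0.0953% and 0.127% (exact permutation p = 0.603). The share counts single-hashtag cells only, and these were not an equal part of every class. A single hashtag was called on 68.7% of NK cells and 53.1% of other cells in PFF + VH, but on 57.7% and 80.5% with AZD1480, which widens the difference. No hashtag was called on 3.73% of NK cells and 35.6% of other cells in PFF + VH, and on 0% and 6.47% with AZD1480. Over all cells of the library, without hashtags, NK cells were 0.389% (interval 0.326 to 0.461) in PFF + VH and 0.200% (0.130 to 0.292) in PFF + AZD1480, a smaller gap in the same direction. NK cells carried more than 1 hashtag in 27.6% (VH) and 42.3% (AZD1480) of cases, against 11.2% and 13.1% of other cells, and assigning these to their strongest hashtag, an option added with the values in view, gave a difference of -0.374 for NK cells (adjusted p = 0.0476). Without any 1 hashtag the direction was kept, at -0.408 to -0.322, and the adjusted p was 0.0857 or 0.107, the least those designs allow.

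**Figure D5:**
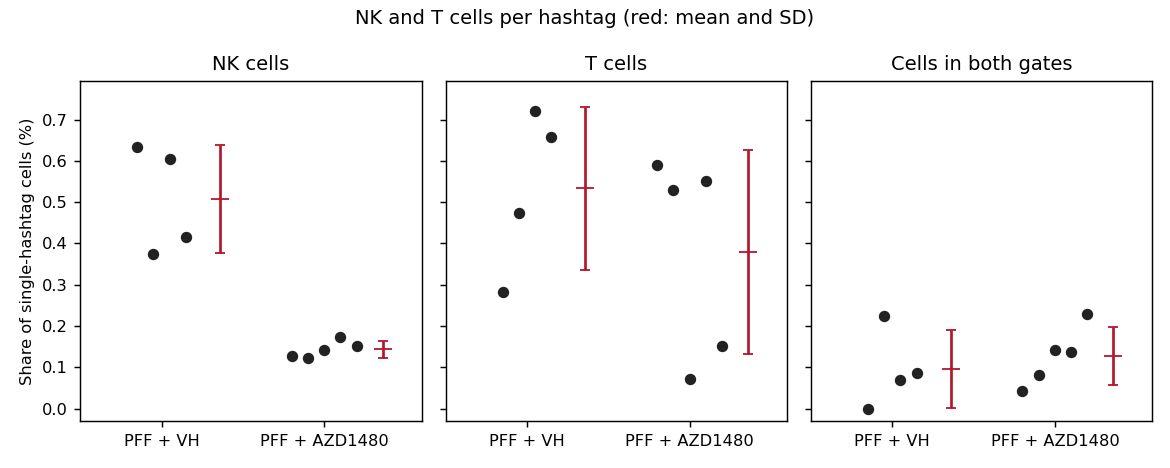
Points give the share (%) of single-hashtag cells of each hashtag that were NK cells, T cells or in both gates, and red marks give the mean and SD. The NK shares of the 5 AZD1480 hashtags (0.122% to 0.173%) lie below those of the 4 PFF + VH hashtags (0.375% to 0.633%), and the T cell shares overlap.

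Over whole libraries, NK cells were 0.513%, 0.526%, 0.389% and 0.200% of cells in PBS, Monomer, PFF + VH and PFF + AZD1480 and T cells 1.01%, 0.645%, 0.476% and 0.737%. There were 0.510, 0.814, 0.817 and 0.271 NK cells per T cell. Whole libraries have no replicates, and these values are not tests.

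The wider cytotoxic programme was read from 45 further genes for granule contents and death ligands, exocytosis, NK receptors, transcription factors, cytokine receptors and chemokines. Klre1, Klra8, Klra4, Eomes, Klrk1 and Il2rb are also NK check genes, so the NK counts partly repeat the check of the gates. Of the 40 genes tested in NK cells against other cells, 31 were higher and 4 lower, at a median log2 fold change of 6.74 against -0.01 over all genes. Over all 8647 genes, 26.2% were higher and 26.9% lower. The largest was the Ly49 gene Klra4 (11.29) and the smallest Ifngr2 (-2.07), a chain of the receptor for Ifng. In T cells against other cells 30 were higher and 5 lower (median 4.14), beside 26.9% and 26.7% of all genes. They were led by Gzmk (8.88), which encodes granzyme K. Between NK and T cells 21 were higher and 1 lower in NK cells (median 1.24), beside 3.18% and 3.06% of all genes. The lower gene was Gzmk (-5.06 ± 0.83, adjusted p = 0.00283). NK receptor genes made up 10 of the 21.

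CD8 T cells had a granzyme other than the 2 members. Of 21 programme genes tested between CD8 and CD4 cells, 7 were higher in CD8, beside 0.821% of all 3288 genes. Among them were Gzmk (3.95), Ccl5 (3.97), the receptor gene Klrk1 (3.49) and the transcription factor gene Runx3 (1.40). Of 32 programme genes tested between PFF + AZD1480 and PFF + VH lymphocytes, 3 were lower, namely the Ly49 gene Klra9 (-5.60, adjusted p = 0.0179), the chemokine gene Ccl5 (-1.97, adjusted p = 0.00721) and Klrk1 (-1.20, adjusted p = 0.0452), and 1 was higher, Rab27a (2.15, adjusted p = 0.0484), whose product docks granules at the membrane. The median of the 32 programme genes was -0.70 against 0.00 over all 3426 genes, of which 0.467% were lower and 0.234% higher. The NK cell share was lower in the same hashtags, and its part in these calls was not tested. Nor was the part of the hybrid breeding of the mice. Taking every NK cell of a library, Klra9 stood at 218 (VH) and 371 (AZD1480) CPM. Klrk1 stood at 536 (VH) and 585 (AZD1480) CPM, so neither receptor gene was lower with AZD1480 there. Ccl5 was lower, at 2965 (VH) and 1532 (AZD1480) CPM. In T cells Klrk1 and Ccl5 were lower with AZD1480. Klra9 was at 6.37 (VH) and 3.84 (AZD1480) CPM there, where 3 UMIs are 4.78 and 3.84 CPM, too few to order. These library levels have no replicates, and their differences were not tested. In T cells alone 0 of 13 programme genes passed, as for all genes in that test.

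Finally, the genes with the most similar pattern were listed for each member, by Pearson r of log2(CPM + 1) over 24 points (6 cell classes in 4 libraries) among 7056 genes, as a description without a test, since points of a library share its depth. Gzma was most like Styk1 (0.89) and Klra8 (0.89), and Gzmb most like Klre1 (0.89) and Klrd1 (0.89). Prf1 was most like Ppp3cc (0.93), Nkg7 most like Txk (0.98), AW112010 (0.97) and Ccl5 (0.97), and Klrd1 most like Klre1 (0.98) and Klrc1 (0.97). Ifng was most like Sept6 (0.96), Ptprcap (0.96) and Ifi47 (0.96). Another member was among the top 3 for Gzma and Gzmb only.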

How the data were processed

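CD45+ midbrain cells were profiled by droplet 3′ sequencing. The deposited matrices hold raw, whole-number UMI counts from Cell Ranger (7.0.1 in the matrix header) on mm10, by the submitters' notes, and hashtag counts for the 2 PFF libraries. Kept cells had 500 to 15000 counts, 250 to 5000 detected genes and no more than 10% mitochondrial counts. No doublet caller was run beyond hashtags, and cells with more than 1 hashtag stayed in all values and tests by library. They made up 30.5% of T cells and 64.6% of cells in both gates in PFF + VH, and 52.1% and 42.9% in PFF + AZD1480. Hashtags were called with Seurat 5.3.0 HTODemux (positive quantile 0.99). Counts were summed per class and sample and tested with edgeR 4.0.16 (quasi-likelihood, TMM, filterByExpr, Benjamini-Hochberg over all genes, threshold 0.05) in R 4.3.3. DESeq2 1.42.0, other scalings, filters, gates, hashtag calls and left-out samples were alternatives, and the tests were tested on simulated data. Shares were compared by exact permutation in SciPy 1.17.1. Members and gene lists were chosen with earlier results of these data known. Named genes were the members, the largest and smallest change of each programme group, and the 3 most similar genes, and Klrk1 in lymphocytes was named after its value was seen. The labels do not say that hashtags mark separate mice, so p-values measure only the spread between these samples. PFF + VH had 4 hashtags and PFF + AZD1480 5. Settings with cells rich in neutrophil genes left out, the strongest hashtag or all hashtags were added after seeing the data.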

Additional observations from a re-analysis of the deposited data

Results flagged for a closer look

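Dixon's criterion was applied to 30 groups of hashtag values, each of the 4 PFF + VH or the 5 PFF + AZD1480 hashtags. In 5 groups, all of PFF + AZD1480, 1 hashtag lay far from the others. The criterion is made for independent, normally distributed values. These values are sparse counts from few cells, and the groups share cells, so 5 of 30 cannot be set against a chance rate. Hashtag 3 stood apart for Gzma in the summed lymphocytes (1505.5 CPM) and in NK cells (3686 CPM), and for Gzmb in the summed lymphocytes (153 CPM) and in NK cells (374 CPM). All 4 values come from a single NK cell with 69 Gzma and 7 Gzmb UMIs. Nkg7 in the NK cells of hashtag 3 stood apart too, at 1443 CPM, from 2 NK cells of which 1 had 18 of the 27 UMIs, so that all 5 values are of that hashtag.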

How the results depend on the processing

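Few NK cells per AZD1480 hashtag and the shallow PFF + VH library limited what could be seen. All 6 members kept their call in NK cells against other cells in every alternative that tested them, as did Gzma, Gzmb, Klrd1 and Prf1 in NK against T cells, and Nkg7 in CD8 against CD4 cells. The cause of the changes below was not tested. In lymphocytes with AZD1480, the 8 higher genes became 14 with DESeq2, 5 with RLE scaling, 96 without a filter on low counts, 3 without cells rich in MG genes, 4 with all barcodes, 5 without cells rich in neutrophil genes, 2 with the hashtag number as a replicate block, 48 with the strongest hashtag and 0 with all hashtags. The 16 lower genes became 72 without a filter, 6 with all barcodes, 5 with MULTIseqDemux, 7 with values centred within cells, 7 with the replicate block and 4 with all hashtags. Ifng reversed to -0.32 with MULTIseqDemux. The hashtag numbers did not pair the samples (correlations -0.0592, 0.0900 and -0.0119 over 3065 genes). Without 1 hashtag, 0 (VH hashtag 1) to 23 (AZD1480 hashtag 2) genes were higher, with 2 without VH hashtag 2, 5 without VH hashtag 4 and 17 without AZD1480 hashtag 4, and 9 (VH hashtag 1) to 17 lower, with 10 without VH hashtag 2.

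In T cells with AZD1480, the 0 higher genes became 37 without a filter, 12 without cells rich in MG genes and 1 with MULTIseqDemux, and the 0 lower genes 19 without a filter, 3 with a gate of 1 UMI, 2 with all barcodes, 2 with MULTIseqDemux, 1 with centring within cells and 2 with the strongest hashtag, where Nkg7 reversed to 0.044. Without 1 hashtag, 0 to 9 (without AZD1480 hashtag 2) were higher and 0 to 1 lower. With the 4 PFF + VH hashtags as samples, NK cells against other cells gave 660 higher and 659 lower genes, T cells 535 and 467 with Gzmb at -5.58, and NK against T cells 69 and 105, and this last comparison gave 505 lower without a filter. Without 1 library, NK against other cells gave 1803 to 2162 higher and 1841 to 2283 lower, T cells 1779 to 2319 and 1813 to 2331, and NK against T cells 134 (without PBS) to 269 and 135 (without Monomer) to 338, with Ifng at -0.020 (without Monomer) to 0.86. CD8 against CD4 cells gave 114 higher without a filter and 12 with no replicate block, and lower genes became 110 without a filter, 67 with a gate of 1 UMI, 20 with a gate of 3 UMIs, 21 without cells rich in MG genes and 15 with no replicate block. Without 1 library there were 13 (without PBS) to 25 higher and 14 (without PBS) to 30 lower.

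The NK share difference kept its direction throughout, at -1.74 with MULTIseqDemux (adjusted p = 0.107 by exact permutation), -0.830 with a gate of 1 UMI (adjusted p = 0.0476) and -0.408 to -0.322 without 1 hashtag, where the adjusted p was 0.0857 or 0.107 because the smallest p was then 0.0286 or 0.0357. MULTIseqDemux called no hashtag on 82.9% of PFF + VH cells and 21.6% of PFF + AZD1480 cells, and 3 PFF + VH hashtags entered. T cells then reached 16.9% of the cells of a PFF + VH hashtag. The size of its share differences therefore cannot be set beside the others. The T share difference was 0.0262 with a gate of 3 UMIs, 0.0535 with the strongest hashtag and -0.238 to -0.0772 without 1 hashtag, -6.71 with MULTIseqDemux and -0.264 with centring within cells. For cells in both gates it was -0.0125 with a gate of 3 UMIs, -2.31 with MULTIseqDemux, -0.0244 with the strongest hashtag and -0.00045 to 0.0746 without 1 hashtag. NK cells alone could be compared between the treatments only with a gate of 1 UMI or with all hashtags, and hashtags as samples for CD8 against CD4 cells could not be fitted.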
